A study of Mus musculus with 27 samples.

Results

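The genes described here encode the protein subunits of the cytosolic ribosome. They were chosen by symbol: names of the Rpl and Rps series, the stalk proteins Rplp0 to Rplp2 and Rpsa, without pseudogenes and the S6 kinases, and with a mean of at least 10 CPM (counts scaled to a common library size) over the ganglion libraries. Of 55367 gene symbols in the tables, 89 matched by name and 79 reached that level: 44 of the large subunit, 32 of the small subunit and 3 of the stalk. The members just above the threshold were Rps12 at 20.2 CPM, Rpl13a at 21.9 CPM and Rps4l at 23.4 CPM, and those just below it were Rpl24 at 4.53 CPM, Rps3a2 at 2.46 CPM and Rps10 at 1.41 CPM. The choice used a level and no difference between groups. All 79 passed the filter on low counts in both tables, and each had counts in every library.

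The study asked about the effect of Ptpn2, a tyrosine phosphatase that dampens interferon signalling, and of interferon γ (IFNγ) on axon regeneration in mice. It holds 27 RNA-seq libraries in 9 groups of 3. In the ganglion experiment, whole L4-L5 dorsal root ganglia, where sensory neurons lie among glia, vessels and immune cells, were taken from wild-type mice after sham surgery, from wild-type mice with sciatic nerve injury, from mice labelled Ptpn2 KO after sham surgery or after injury, and from injured wild-type mice whose sciatic nerve received RU521, an inhibitor of the DNA sensor cGAS. Collection was 3 days after injury, and the series text calls these samples nerve. In the retinal experiment, ganglion cells, the output neurons of the eye, were collected 3 days after optic nerve injury in all 4 groups, so no uninjured retinal group was analysed here. All 4 groups came from Ptpn2 flox mice. AAV-Cre, which deletes the floxed gene and gives the label Ptpn2 KO, or AAV-GFP, which gives the label wild type, had been put into the eye 2 weeks before injury, and IFNγ or PBS followed right after it. Genotype and virus therefore cannot be told apart in the retina. The driver of the deletion in ganglia, the ages, the number of cells in a retinal library and whether replicates are separate animals do not stand in the sources used here, so p-values measure the spread between these libraries, which may be technical.

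Ribosomal proteins are made in near-equal numbers, and each takes a fixed place in the small subunit, which reads the mRNA, or the large subunit, which joins amino acids. Most of their mRNAs start with a run of pyrimidines, the terminal oligopyrimidine tract, through which mTOR signalling and the protein Larp1 control their translation and stability. In neurons, growth after axon injury is known to involve mTOR activity and new protein synthesis. RNA levels, as measured here, do not report translation.

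RefSeq start regions on GRCm38.p6, the genome build of the ganglion and retinal alignments, were given for 58 of the 79 members. The 9 sequences that come first belong to members called in the clearest comparison below. The last belongs to Rpl5, the member called in retinal cells by edgeR. Each is 30 bases, 10 before the annotated start and 20 from it, 5′ to 3′ on the gene's strand. Capitals mark the longest run of C and T that holds a C and overlaps the 10 bases on either side of the start, as far as it lies in the 30 bases.
Rpl35, chr2:39005112-39005141, minus strand: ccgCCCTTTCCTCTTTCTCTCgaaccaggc
Rpl7a, chr2:26910797-26910826, plus strand: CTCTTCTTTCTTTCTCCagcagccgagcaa
Rps18, chr17:33955646-33955675, minus strand: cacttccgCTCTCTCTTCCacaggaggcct
Rps6, chr4:86857348-86857377, minus strand: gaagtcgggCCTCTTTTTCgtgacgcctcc
Rps26, chr10:128626487-128626516, minus strand: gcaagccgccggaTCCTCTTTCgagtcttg
Rpl12, chr2:32961702-32961731, plus strand: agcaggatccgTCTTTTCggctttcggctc
Rps27l, chr9:66946076-66946105, plus strand: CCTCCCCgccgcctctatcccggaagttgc
Rps2, chr17:24720053-24720082, plus strand: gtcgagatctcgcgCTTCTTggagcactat
Rps16, chr7:28350679-28350708, plus strand: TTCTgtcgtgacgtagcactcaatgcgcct
Rpl5, chr5:107900518-107900547, plus strand: cgtcgCTTgcgtgctggtggtgctacatac

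A run of at least 8 pyrimidines lay there in 26 of 58 members (44.8%), against 13.4% of all 27025 genes with a window. A run of at least 10 was found in 19 of 58 (32.8%), against 6.7%. The runs of Rpl35 (18 bases), Rpl7a (21 bases), Rps18 (11 bases) and Rps6 (10 bases) crossed the annotated start, whereas those of Rps27l, Rps16 and Rpl5 ended before it. In the wider window of 250 bases before and 50 after the start, read on both strands, CCGGAAG occurred in 23 of 58 members (39.7%) against 9.1% of genes, and GGGCGG in 62.1% against 35.9%. TTCNNNGAA, whose letters resemble a STAT site, occurred in 3 members (5.2%) against 8.5%, and a fixed form of the interferon-stimulated response element in 7 (12.1%) against 3.5%. GATGGCG was found in 8.6% of members against 3.7%, TATAAA in 10.3% against 14.2% and CACGTG in 8.6% against 7.2%. For 9 members with more than 1 annotated start the first listed was used, so these shares describe the listed starts.

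Library totals ran from 14813365 to 22414750 counts in ganglia and from 13239988 to 17122057 in retinal cells, and the lowest count of any member was 255 and 121. Ptpn2 did not check the labels: its counts over all exons gave 15.8 to 19.7 CPM in injured wild-type ganglia and 18.5 to 26.4 CPM in injured ganglia labelled Ptpn2 KO (log2 difference 0.38 ± 0.22 SE, adjusted p = 0.50), and such counts include exons that a deletion may leave. Levels overlapped in sham ganglia too, and 2 retinal libraries, 1 of each genotype label with IFNγ, had no Ptpn2 count. The genotype is therefore given as a label throughout. The wild-type sham libraries 1 and 3 stood apart from the other ganglion libraries, with 26235 and 26802 detected genes against 34115 in library 2, and mitochondrial shares of 4.87% and 6.52% against 15.2%. Library 2 stood apart in another measure. Its counts under the symbol CT010467.1 made up 7.51% of the total, against 1.98% to 4.12% in the other ganglion libraries. Markers of sensory neurons were present in all ganglion libraries, and those of retinal ganglion cells in all retinal libraries (summed level 3858 to 13620 CPM). The latter list summed to 8097 to 13005 CPM in wild-type sham ganglia. Its sum therefore does not tell retinal ganglion cells from sensory neurons.

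The 79 genes together took a small share of all counts, 0.77% to 1.36% in ganglia and 0.96% to 2.83% in retinal cells. The total includes mitochondrial genes and CT010467.1, which took 1.98% to 7.51% of ganglion counts and 22.1% to 35.7% of retinal counts. Without both, the share was 0.83% to 1.76% in ganglia and 1.49% to 3.82% in retinal cells. The shares below are of all counts. In ganglia, per library, the share was 0.77%, 1.36% and 0.79% in wild-type sham, 1.02%, 1.02% and 1.03% in wild-type injured, and 0.98%, 1.08% and 1.09% with RU521. In ganglia labelled Ptpn2 KO it was 0.92%, 0.90% and 0.93% after sham surgery and 1.24%, 1.21% and 1.23% after injury. Injured ganglia labelled Ptpn2 KO thus lay above every other ganglion library except wild-type sham library 2, which was the highest of the 15, while wild-type sham libraries 1 and 3 were the lowest. In retinal cells the share was 1.30%, 1.48% and 2.83% in wild type with PBS, 1.37%, 0.99% and 1.47% in wild type with IFNγ, 1.56%, 1.23% and 1.64% in cells labelled Ptpn2 KO with PBS, and 0.96%, 1.34% and 1.33% in those with IFNγ. There, 1 wild-type PBS library stood far above the other 11, whose ranges overlapped. Because ganglia are bulk tissue, a change in the number of cells of a type and a change in RNA per cell cannot be told apart.

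**Figure D1:**
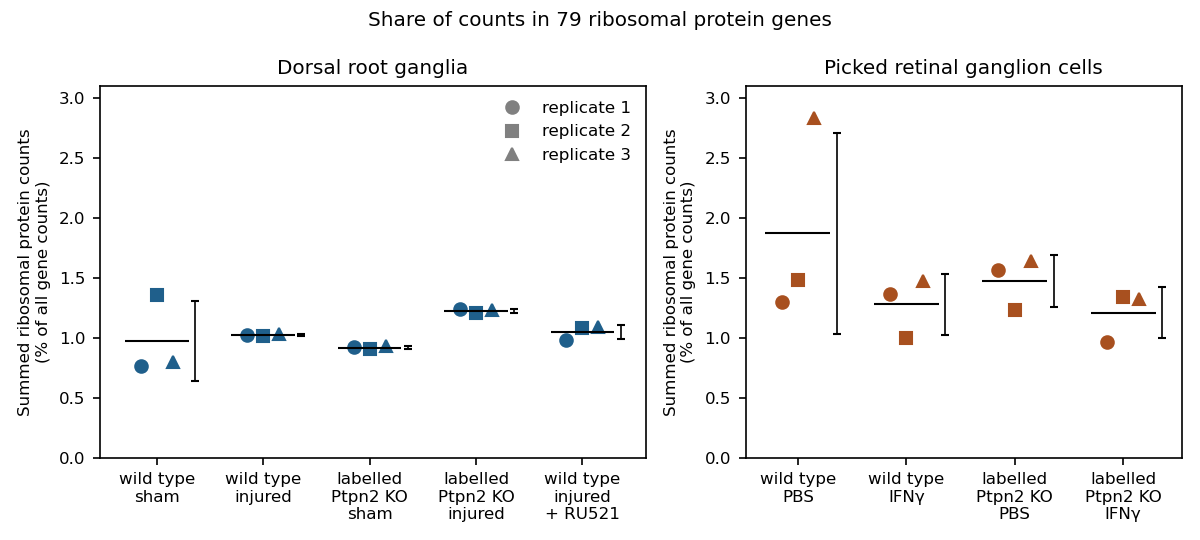
Summed counts of the 79 ribosomal protein genes as a percentage of all gene counts, by library (points, shaped by replicate), with the group mean (line) and SD (bar beside it, n = 3). Injured ganglia labelled Ptpn2 KO lie at 1.23% ± 0.016, above the 0.918% ± 0.0133 of their sham group, while wild-type sham libraries spread from 0.77% to 1.36%.

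Levels per gene length put the stalk genes Rplp0 and Rplp1 first, but not Rplp2. Rplp0, the scaffold of the stalk that recruits elongation factors, had 411 CPM per kilobase of exon (mean over 15 ganglion libraries), followed by its partner Rplp1 at 306 and by Rpl4, which lines the exit tunnel, at 282. The lowest were Rps12 at 9.97, and Rps15a and Rpl13a at 10.3 each. In retinal cells, with the same lengths, Rplp1, Rplp0 and Rpl4 were again the highest, whereas Rplp2 had 62.6 CPM per kilobase. Lengths cover all exons of a gene and therefore understate genes with long rare exons. Rps12 has 24 annotated pseudogenes, which took 8.86% of the counts under its name and theirs in ganglia, and for Rpl9 the pseudogene share was 39.3% in retinal cells. Values of such members are uncertain, since reads may be split between copies.

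Replicates within a group differed little in 3 of the 5 ganglion groups and strongly in 1. The coefficient of variation of a member among its replicates had a median of 4.51% in wild-type injured ganglia and 3.99% and 4.58% in sham and injured ganglia labelled Ptpn2 KO. It was 8.88% with RU521 and 36.6% in wild-type sham. In retinal cells the medians were 46.0% in wild type with PBS, and 21.1% to 23.4% in the other 3 groups. Relative to the median member of each library, Rps25 was the steadiest member across ganglion libraries (SD 0.05 on the log2 scale) and Rps4l (SD 0.35), Rps2 (SD 0.32) and Rps14 (SD 0.31) varied most.

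**Figure D2:**
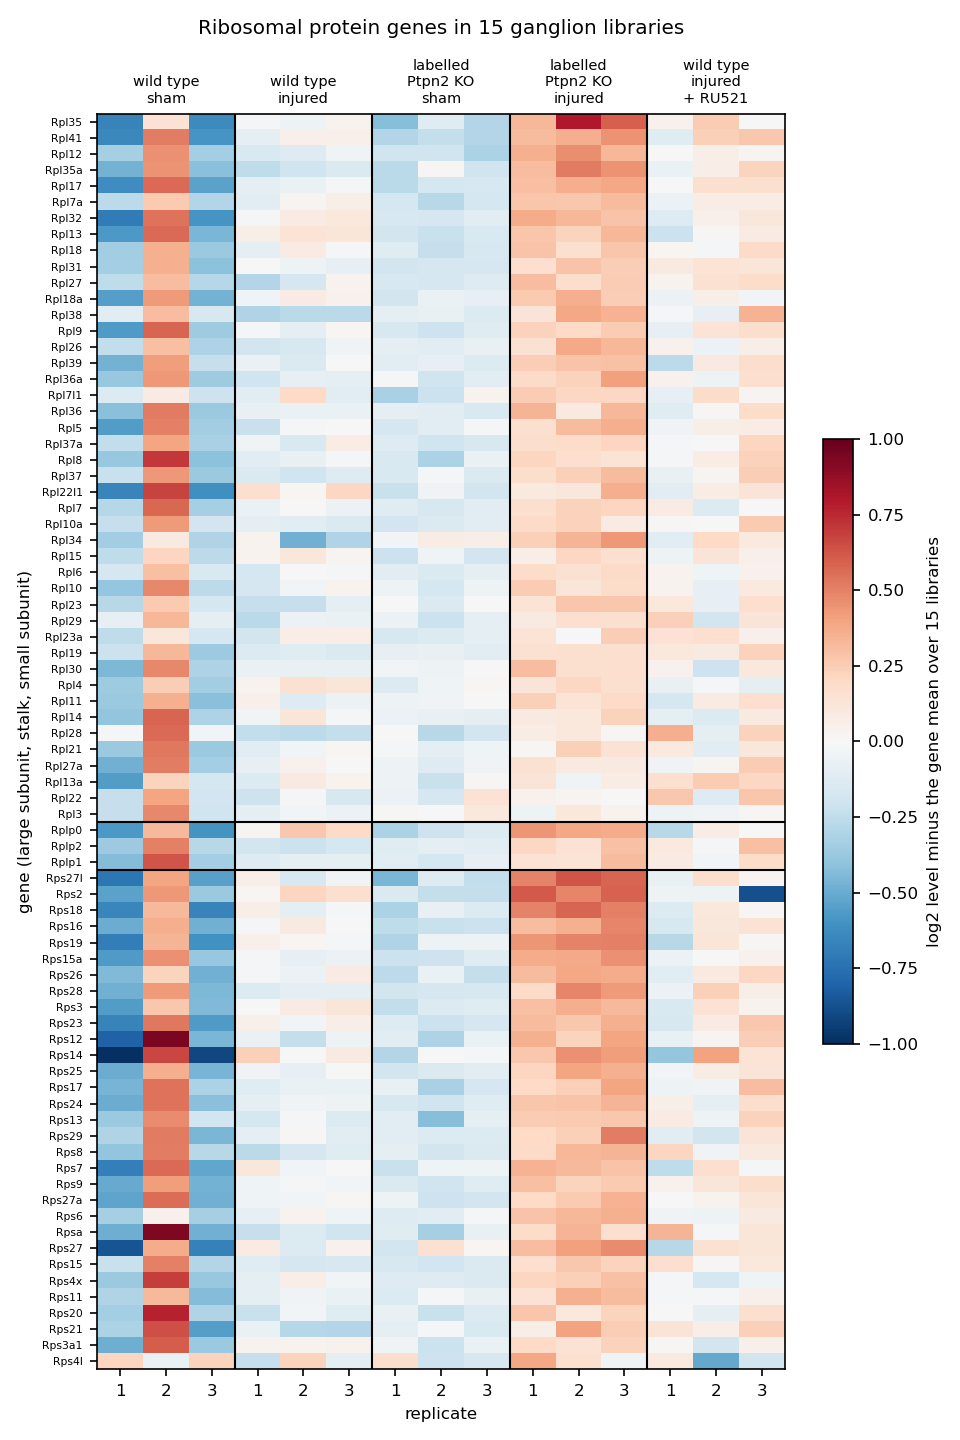
Level of 78 of the 79 genes (vertical axis, by subunit and then by the fold change between injured and sham ganglia labelled Ptpn2 KO) in 15 ganglion libraries (horizontal axis, by group and replicate), as log2 CPM minus the gene's mean, with the colour scale ending at ±1. Most genes are low in wild-type sham libraries 1 and 3, high in library 2 and high in the 3 injured libraries labelled Ptpn2 KO, and Rps2 is low in RU521 library 3.

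Nerve injury in ganglia labelled Ptpn2 KO was the comparison in which members were called higher in the fit over all groups. Of 79 members, 10 were called higher and 0 lower (edgeR, adjusted p under 0.05), where 6.34% of all 18517 genes tested were called higher and 10.9% in either direction. The median log2 fold change was 0.39 (1.31-fold), against -0.01 over all genes, and 78 of 79 values were above 0. In 75 members all 3 injured libraries lay above all 3 sham libraries, which held for 19.7% of all genes. The summed share rose from 0.918% ± 0.0133 to 1.23% ± 0.016 (SD, n = 3), with no overlap. The exact two-sided permutation test gave p = 0.1, the smallest that 3 against 3 allows, and 0.5 after adjustment over 10 comparisons.

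Of the 10 called members, 7 belong to the small subunit, which holds 32 of the 79 members. Rps27l, the paralog of Rps27 that p53 induces, measured 60.6, 76.3 and 70.0 CPM in sham and 118, 129 and 125 CPM in injured libraries labelled Ptpn2 KO (log2 fold change 0.84 ± 0.22 SE, adjusted p = 0.0219). Its parent Rps27 had a log2 fold change of 0.40 ± 0.24 and was not called (adjusted p = 0.34). Rps6, the substrate of the S6 kinases downstream of mTOR, measured 114, 115 and 123 CPM in sham and 153, 157 and 160 CPM after injury (0.41 ± 0.12, adjusted p = 0.0374). All injured values of Rps27l and Rps6 exceeded all sham values. Rps2, at the mRNA entry channel, stood at 194, 182 and 183 CPM in sham and at 329, 301 and 323 CPM after injury (0.77 ± 0.23, adjusted p = 0.0441). Rps18, a protein of the small subunit's head, rose by 0.70 ± 0.20 (adjusted p = 0.0388), Rps16 by 0.62 ± 0.19 (adjusted p = 0.0444) and Rps26, which binds mRNA near the exit, by 0.55 ± 0.17 (adjusted p = 0.0453).

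Of the large subunit, Rpl35, which lies at the exit of the peptide tunnel, showed the highest fold change of all members. It measured 88.5, 110 and 97.0 CPM in sham and 149, 208 and 180 CPM after injury, so that injured libraries were higher but also more spread (0.86 ± 0.19, adjusted p = 0.00979). Rpl12, at the base of the stalk, went from 50.5, 50.4 and 46.5 CPM to 74.0, 79.7 and 72.7 CPM (0.62 ± 0.17, adjusted p = 0.0326), and Rpl7a from 94.5, 88.2 and 94.5 CPM to 130, 129 and 133 CPM (0.50 ± 0.14, adjusted p = 0.0309). Both groups of 3 were again apart. The start sequences of Rpl35 and Rpl7a printed above hold the longest pyrimidine runs of the set, and those of Rps2 and Rps16, called as well, hold runs of 6 and 5 bases.

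Several familiar members did not pass. Rplp0 measured 534, 578 and 607 CPM in sham and 903, 871 and 862 CPM after injury, a full separation with a log2 fold change of 0.62 ± 0.20 and an adjusted p of 0.0607. Rpl13, a large subunit protein, measured 210, 205 and 215 CPM against 289, 279 and 301 CPM (0.47 ± 0.22, adjusted p = 0.20). The stalk proteins Rplp1 and Rplp2 had values of 0.32 ± 0.21 and 0.32 ± 0.18, and Rpsa, also known as a laminin-binding protein, 0.40 ± 0.28. The paralogs Rpl22l1, Rps4x, Rps4l and Rpl7l1 had log2 fold changes of 0.34, 0.38, 0.24 and 0.38, none called. At the bottom of the order, Rpl3 near the peptidyl transferase centre measured 305, 301 and 326 CPM against 292, 325 and 311 CPM (-0.01 ± 0.16), and Rpl22, an RNA-binding protein, had 0.04 ± 0.17.

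**Figure D3:**
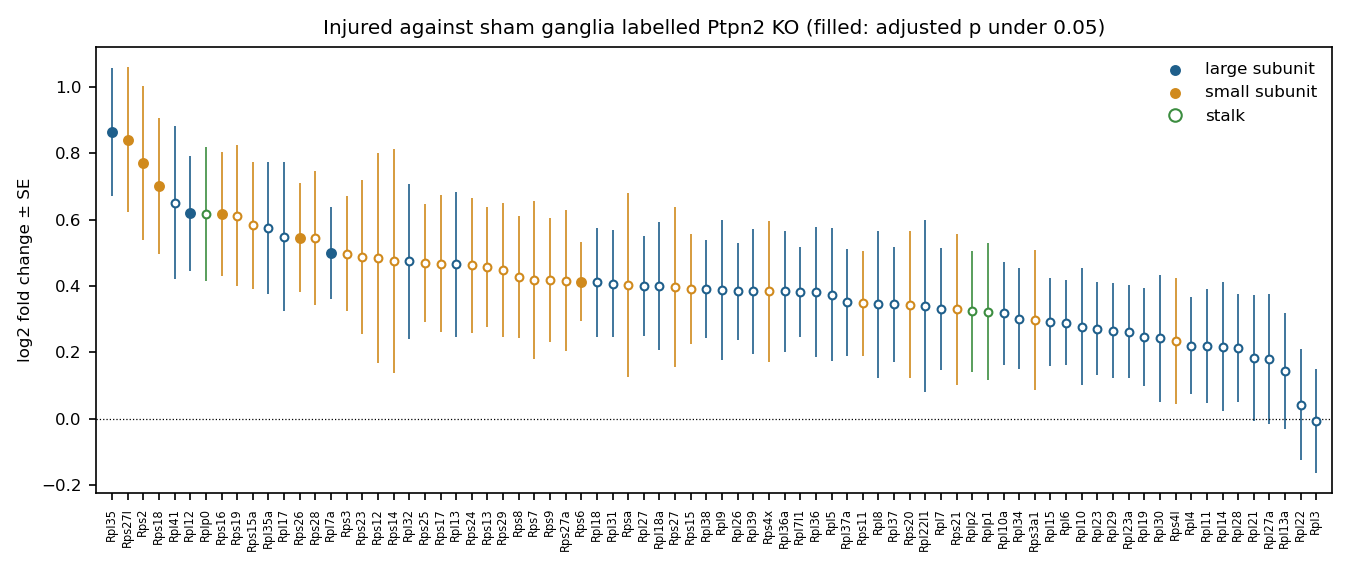
Log2 fold change (vertical axis, ± SE of the fit over all 5 ganglion groups) of 78 of the 79 genes (horizontal axis, ordered by value) between injured and sham ganglia labelled Ptpn2 KO, coloured by subunit. Filled points are the 9 genes shown with an adjusted p under 0.05, and the values run from 0.86 for Rpl35 to -0.01 for Rpl3.

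The number of calls changed with the libraries in the fit and with the tool. The fit over all 5 ganglion groups shares 1 estimate of spread per gene, to which the wild-type sham libraries contribute. With only the 6 libraries compared, 65 of 79 members were called higher, against 13.2% of all genes, and with wild-type sham libraries 1 and 3 left out of the fit, 58 were, against 8.31%. All 10 called members were among both sets, and all 58 were among the 65. The median hardly moved (0.39 in each). In the fit of 6 libraries Rps2 (adjusted p = 7.39e-05), Rps27l (adjusted p = 0.000223) and Rplp0 (adjusted p = 0.000262) were among the members with the smallest p, and Rpl3, Rpl4, Rpl11, Rpl22 and Rpl28 were among the 14 not called. DESeq2 called 17 higher, against 9.41% of genes, and a fit adjusted for each library's detected genes 30, against 9.35%. In the fit over all groups, leaving out any 1 of the 6 libraries left 0 to 2 members called, with medians of 0.35 to 0.41. The share of all genes called in those fits is not given here, so whether other genes lost calls alike cannot be told.

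The median log2 fold change was 0.46 in the small subunit, 0.34 in the large subunit and 0.32 in the stalk, a difference that was not tested. Large subunit and stalk genes together made up 60.3% ± 0.219 of member counts in sham ganglia labelled Ptpn2 KO, 58.3% ± 0.147 in injured ganglia labelled Ptpn2 KO, and 60.0% ± 0.826 in injured wild-type ganglia. The injured libraries labelled Ptpn2 KO overlapped with neither of the other groups (exact permutation p = 0.1 each, 0.5 after adjustment over 10 comparisons).

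Genes of related function were read beside the 6.34% of all genes called higher. The ribosomal genes outside the symbol rule included Fau, Rack1 and Rpl36al, which had log2 fold changes of 0.41, 0.52 and 0.34, none called. Among 16 translation factors whose mRNAs carry pyrimidine tracts, 1 rose, the elongation factor subunit Eef1b2 (0.49 ± 0.13, adjusted p = 0.0206), and the median was 0.16. Among 34 ribosome biogenesis genes, 1 rose, the assembly factor Nop16 (0.46 ± 0.13, adjusted p = 0.0367), with 28 of 34 values above 0 and a median of 0.27. Among 18 genes of MYC and mTOR control of translation, 1 rose, the translation inhibitor Eif4ebp1 (1.26 ± 0.25, adjusted p = 0.00455), and the median was 0.05. Macrophage markers moved with this comparison: 11 of 13 rose, and their summed level ran from 803 to 1127 CPM in sham and from 3406 to 4067 CPM in injured ganglia labelled Ptpn2 KO, with none of the 13 at 0. Of 7 neutrophil markers, 4 rose. Of 14 sensory neuron markers 6 fell, and their sum went from 9877 to 12739 CPM in sham to 7051 to 7575 CPM after injury. Of 8 satellite glia markers 2 fell (sums of 11152 to 12356 CPM and 7731 to 9859 CPM), and of 7 fat cell markers 5 fell (164 to 278 CPM and 19.1 to 53.8 CPM). The part of these markers in the ribosomal protein values was not tested.

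Injury in wild-type ganglia gave no ribosomal protein call, although 16.6% of all genes passed the test. Of 79 members 0 were called by edgeR and 1 had an unadjusted p under 0.05, against 31.3% of all genes. DESeq2 called 1, Rpl28, lower (10.9% of all genes). The median log2 fold change was 0.00, as over all genes, and 38 of 79 values were above 0. Rpl28, a large subunit protein, measured 57.3, 85.2 and 56.6 CPM in sham and 48.5, 48.0 and 48.9 CPM after injury, all injured values being lower (-0.45 ± 0.16, adjusted p = 0.0682). Rpl38, known from mice for its role in translating Hox mRNAs, was the other member whose injured values were all lower, at 56.2, 75.1 and 54.0 CPM against 49.1, 50.1 and 50.04 CPM (-0.31 ± 0.15, adjusted p = 0.164). Complete separation downward held for 15.8% of all genes, and upward for 17.5%, but for 0 members.

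For most members the wild-type sham libraries lay on both sides of the injured ones. Rplp0 measured 448, 834 and 439 CPM in sham and 679, 804 and 763 CPM after injury (0.38 ± 0.20, adjusted p = 0.205), and Rpl13 160, 354 and 174 CPM against 249, 263 and 259 CPM. Rps6 showed a smaller form of the same pattern, 99.1, 129 and 99.3 CPM against 118, 128 and 121 CPM. In each gene the second sham library was above all 3 injured libraries and the other 2 libraries were below all of them. Without wild-type sham library 2, 45 members were called higher (17.7% of all genes) with a median of 0.32. Without library 1 or library 3, the number was 0, and the lowest of these medians was -0.17. In a fit adjusted for detected genes, 3 were called lower (1.70%). The summed share likewise changed by 0.04996 percentage points with all libraries (exact permutation p = 1) and by -0.0534 to 0.242 percentage points when 1 library was left out. No direction for wild-type injury can be read from these data.

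All 13 macrophage markers rose in this comparison too, from a sum of 396 to 1226 CPM in wild-type sham to 2903 to 3025 CPM in wild-type injured ganglia. All 7 neutrophil and all 5 red blood cell markers rose, while 11 of 14 sensory neuron markers fell. The lists of related function (4, 16, 34 and 18 genes) were read beside the 16.6% of all genes called in this comparison. Among them, Eif4ebp1 rose (1.10 ± 0.25, adjusted p = 0.00906), and Larp1, which binds pyrimidine tracts, fell by 1.04 ± 0.23 (adjusted p = 0.00906). Rictor of the mTOR complex fell by 0.85 ± 0.22 (adjusted p = 0.0157) and the biogenesis factor Nop10 by 0.39 ± 0.12 (adjusted p = 0.043). The numbers called per list are not given here, so these single genes do not describe the lists.

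Injured ganglia labelled Ptpn2 KO were then set against injured wild-type ganglia, a comparison that shares its first group with the one above and does not involve the sham groups except through the estimate of spread. All 79 log2 fold changes were above 0, with a median of 0.32 (1.24-fold), against -0.01 over all genes. None was called by edgeR (2.20% of all genes were called, 1.39% higher). The unadjusted p was under 0.05 in 23, against 13.2% of all genes, and DESeq2 called 4 higher (2.66% of all genes). In 70 members all 3 libraries labelled Ptpn2 KO lay above all 3 wild-type libraries, which held for 16.0% of all genes. The summed share was 0.203 percentage points higher (ratio 1.199, exact permutation p = 0.1, 0.5 after adjustment).

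Among the members with the smallest p values were Rpl38 and Rpl34. Rpl38 measured 49.1, 50.1 and 50.04 CPM in injured wild-type ganglia and 66.1, 78.97 and 76.9 CPM in injured ganglia labelled Ptpn2 KO (0.57 ± 0.15, adjusted p = 0.0607). Rpl34, a large subunit protein, measured 80.3, 56.0 and 63.6 CPM against 92.2, 98.7 and 105 CPM (0.57 ± 0.15, adjusted p = 0.0745). The groups did not overlap for either gene, and the wild-type values of Rpl34 were more spread. Rps6 (0.36 ± 0.12), Rps27l (0.62 ± 0.22), Rplp0 (0.23 ± 0.20) and Rpl13 (0.17 ± 0.22) were each higher in all 3 libraries, and none was called.

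With only the 6 libraries compared, 50 members were called higher, against 6.06% of all genes, led by Rps18 (0.54 ± 0.08, adjusted p = 0.00109) and Rps27l (0.61 ± 0.09, adjusted p = 0.00116). With wild-type sham libraries 1 and 3 left out, 21 were called, against 2.13%, and in a fit adjusted for detected genes 57 were, against 4.63%. Of 13 macrophage markers 2 were higher, and of 9 myelinating Schwann cell markers 3 were lower, in injured ganglia labelled Ptpn2 KO, whose Schwann cell marker sum ran from 10326 to 13063 CPM against 22170 to 24005 CPM in wild-type injured. Of 11 endothelium and fibroblast markers 3 were lower (sums of 2177 to 2423 CPM against 3417 to 3467 CPM), and the 5 red blood cell markers, none called, summed to 5281 to 6567 CPM against 10680 to 10749 CPM. The part of these markers in the ribosomal protein values was not tested. In the 4 lists of related function 0 genes were called, and 30 of 34 biogenesis genes and 14 of 16 translation factors had values above 0, with medians of 0.15 and 0.10.

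In sham ganglia labelled Ptpn2 KO, set against wild-type sham, 0 members were called by edgeR or DESeq2. An unadjusted p under 0.05 was found for 1 member, against 8.67% of all genes. The median was -0.09 (-0.04 over all genes), and 0.135% of all genes were called by edgeR and 1.40% by DESeq2. The smallest p was that of Rpl28 (-0.35 ± 0.16, adjusted p = 0.565). The ranges of all 79 members overlapped, but the share of all genes that overlapped is not given here. Without wild-type sham library 2, 14 members were called higher (3.55% of all genes) and the median was 0.28, so here, too, no direction can be read.

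The difference between both injury effects was tested as an interaction. It called 0 members by edgeR, against 0.448% of all genes, and 0 by DESeq2, against 1.80%. Of the members 14 had an unadjusted p under 0.05, against 9.79% of all genes. The median difference of log2 fold changes was 0.40 (0.02 over all genes), with 78 of 79 values above 0. The smallest p belonged to Rpl38 (0.70 ± 0.21, adjusted p = 0.227), then Rpl28 (0.67 ± 0.23) and Rpl12 (0.70 ± 0.24). This median fell to 0.05 without wild-type sham library 2, whereas the fit adjusted for each library's detected genes called 23 members higher (1.46% of genes). Under the test over all groups, the rise in ganglia labelled Ptpn2 KO was not shown to differ from the change in wild type.

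RU521 in injured wild-type ganglia gave 0 member calls by edgeR and DESeq2, against 9.58% of all genes by edgeR and 18.5% by DESeq2. Of the members 2 had an unadjusted p under 0.05, against 25.3% of all genes. The median was 0.10 (-0.03 over all genes) and 63 of 79 values were above 0. In a fit adjusted for detected genes 16 members were called higher (3.52% of genes), and without wild-type sham libraries 1 and 3 there were 4 (7.32%). Complete separation was upward in 24 members (16.1% of all genes) and downward in 2 (16.9%). Rpl28 measured 74.3, 53.8 and 67.5 CPM with RU521, above the 3 wild-type injured values given before (0.43 ± 0.16, adjusted p = 0.109), and Rpl38 measured 59.8, 57.1 and 76.8 CPM (0.38 ± 0.15, adjusted p = 0.122). Both genes were thus lowest in untreated injured wild-type ganglia among the injured groups. This comparison shares the injured wild-type libraries with those above, so the 3 sets of values are not independent. Rps2 was at 207, 207 and 117 CPM with RU521 and at 218, 249 and 240.5 CPM without, 1 treated library being far below the others (-0.41, adjusted p = 0.285).

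For RU521 the related lists (4, 16, 34 and 18 genes) were read beside the 9.58% of all genes called by edgeR. Among them, Larp1 was higher with RU521 (1.37 ± 0.24, adjusted p = 0.00375), as were the biogenesis factors Nhp2 (0.41 ± 0.12, adjusted p = 0.0404) and Nop10 (0.43 ± 0.12, adjusted p = 0.0405). Here, too, the numbers called per list are not given, so single genes do not describe the lists. All 9 myelinating Schwann cell, 7 of 11 endothelium and fibroblast and 3 of 13 macrophage markers were lower and 7 of 14 sensory neuron markers were higher. The macrophage sum spread from 1143 to 3460 CPM over the 3 RU521 libraries. The part of these markers in the ribosomal protein values was not tested.

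**Figure D4:**
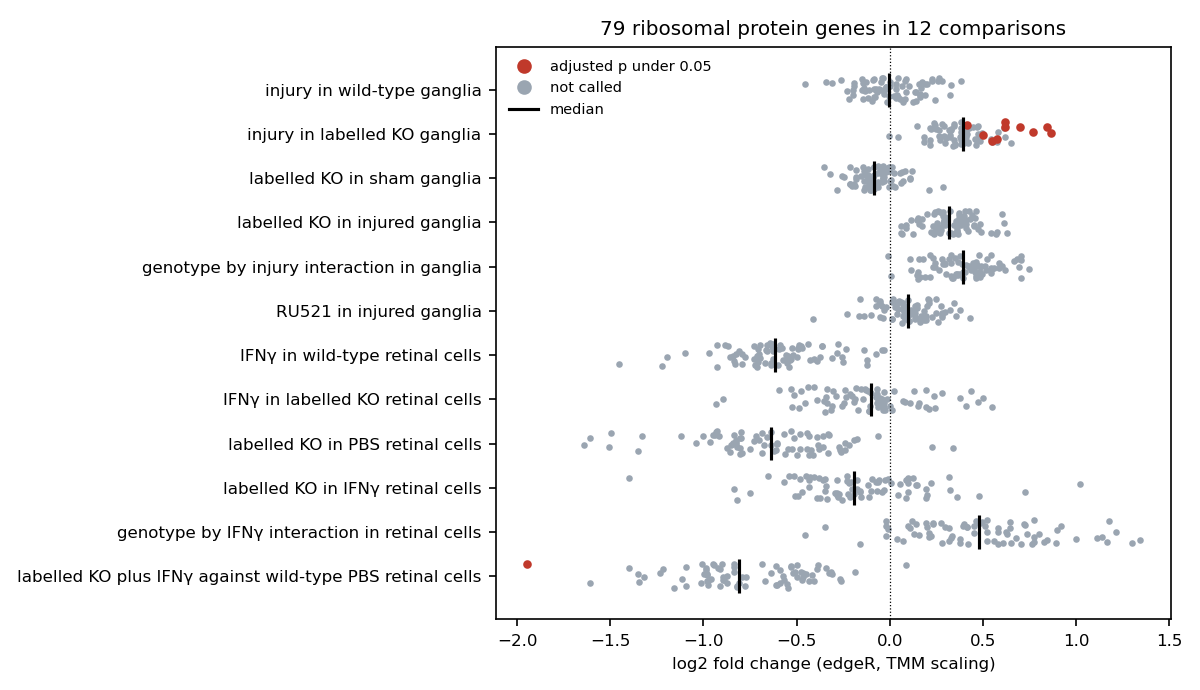
Log2 fold changes of the 79 genes (points, with vertical scatter for visibility only) in 12 comparisons, with the median of each (black bar) and genes with an adjusted p under 0.05 in red. Red points appear in 2 rows: 10 genes higher after injury in ganglia labelled Ptpn2 KO, with a median of 0.39, and Rpl5, lower at -1.95 in retinal cells labelled Ptpn2 KO with IFNγ against wild type with PBS.

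In picked retinal cells the spread between libraries over all genes tested was several times larger (biological coefficient of variation 1.27, against 0.262 in ganglia). Few genes of any kind were called. For the members the gap was smaller, with a median SE of 0.41 for IFNγ in wild-type cells against 0.19 for injury in wild-type ganglia. IFNγ in wild-type cells called 0 members (0 of 13487 genes in all, 0% called) by edgeR and 0 members by DESeq2 (1.59% of genes). An unadjusted p under 0.05 was seen in 9 members, against 4.02% of genes. All 79 log2 values were below 0, with a median of -0.62 (-0.02 over all genes), and 17 members were lower in all 3 libraries (4.17% of all genes). The wild-type PBS library 3, the highest in the summed share, carried most of this: without it the median was -0.12. Rps27, for example, measured 132, 156 and 278 CPM with PBS and 76.9, 67.1 and 98.3 CPM with IFNγ (-1.22 ± 0.37, adjusted p = 1). Rpl34 measured 81.1, 116 and 235 CPM against 83.3, 48.2 and 56.7 CPM (-1.20 ± 0.43), and Rps4l 167, 118 and 279 CPM against 72.9, 75.9 and 115 CPM (-1.10 ± 0.44). The third PBS value was the highest in all 3 genes.

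IFNγ in cells labelled Ptpn2 KO called 0 members by edgeR (0% of genes) and 0 by DESeq2 (2.47% of genes). Of the members 0 had an unadjusted p under 0.05, against 6.52% of genes. The median was -0.10 (0.01 over all genes) and 20 of 79 values were above 0. Complete separation was upward in 1 member (6.15% of all genes) and downward in 5 (3.81%). Rpl10a, a large subunit protein, measured 117, 118 and 92.5 CPM with PBS and 48.2, 61.9 and 61.1 CPM with IFNγ (-0.94 ± 0.44, adjusted p = 0.729). Rps27l (-0.90 ± 0.57) and Rpl9 (-0.51 ± 0.34) followed. The difference between both IFNγ effects had a median of 0.48 (0.09 over all genes) and called 0 members (0% of genes). Without wild-type PBS library 3 it was 0.06.

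Cells labelled Ptpn2 KO, compared with wild type after PBS, had 77 of 79 values below 0 and a median of -0.64 (0.00 over all genes). By edgeR 0 members were called (0.0222% of genes called), and 15 had an unadjusted p under 0.05, against 9.50% of genes. Complete separation downward held for 19 members, against 7.10% of all genes. The summed retinal ganglion cell markers moved with this comparison, from 6484 to 8893 CPM in wild type to 3858 to 5562 CPM in cells labelled Ptpn2 KO, with 0 of 13 called and a median log2 value of -0.75. Their part in the ribosomal protein values was not tested. Rps15a measured 248, 268 and 595 CPM in wild type and 113, 127 and 116 CPM in cells labelled Ptpn2 KO (-1.64 ± 0.44, adjusted p = 0.34). Rps15, of the small subunit's head, measured 187, 198 and 539 CPM against 75.5, 103 and 123 CPM (-1.61 ± 0.46, adjusted p = 0.377). The groups did not overlap for either, and wild-type library 3 was again far above the others. DESeq2 called 4 members lower (Rpl5, Rps15a, Rps15 and Rpl35), against 2.22% of genes. Without wild-type PBS library 3 the median was -0.20. After IFNγ the same genotype comparison had a median of -0.19 (0.05 over all genes) and 0 calls by edgeR (0% of genes). The unadjusted p was under 0.05 in 1 member, against 4.95% of genes. DESeq2 called 1, Rpl5, lower (0.649% of genes). In this comparison 12 members were lower without overlap (6.16% of genes) and 2 higher (6.13%).

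Rpl5 was the member called in retinal cells by edgeR. With Rpl11 and the small ribosomal RNA of the large subunit it forms the particle that can bind and inhibit the p53 ligase Mdm2. It measured 651, 590 and 653 CPM in wild type with PBS and 411, 314 and 570 CPM in wild type with IFNγ. In cells labelled Ptpn2 KO it measured 246, 180 and 240 CPM with PBS and 161, 175 and 155 CPM with IFNγ. Every library labelled Ptpn2 KO was below every wild-type library, and the 3 wild-type PBS values were close to each other, unlike those of most members. The full separation was not particular to Rpl5. Rps15 measured 69.7 to 127 CPM in libraries labelled Ptpn2 KO and 136 to 539 CPM in wild-type libraries. The log2 difference between genotypes was -1.51 ± 0.31 with PBS (adjusted p = 0.156) and -1.40 ± 0.31 with IFNγ (adjusted p = 0.856), and cells labelled Ptpn2 KO with IFNγ differed from wild type with PBS by -1.95 ± 0.31 (adjusted p = 0.0496). Rpl5 was the member called in this last comparison, in which 0.00741% of genes were called lower and 0.0519% in either direction, and it shares groups with the other comparisons.

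That call sat at the threshold. Over 15 fits with different settings the log2 value ranged from -2.002 to -1.91, and the adjusted p from 3.37e-08 (DESeq2) to 0.323. The genotype differences ranged from -1.63 to -1.41 with PBS (adjusted p 6.37e-05 to 0.534) and from -1.58 to -1.15 with IFNγ (adjusted p 0.000506 to 1). The IFNγ effect on Rpl5 was -0.55 in wild type and -0.44 in cells labelled Ptpn2 KO, neither called. Within the module, Rpl5 took 3.98%, 3.99% and 2.28% of member counts in wild-type PBS cells and 3.24%, 2.34% and 3.79% with IFNγ. In libraries labelled Ptpn2 KO it took 1.88%, 1.68% and 1.73% with PBS and 1.45%, 1.31% and 1.35% with IFNγ, again with no overlap between the genotype labels. In ganglia the share was 1.01% to 1.22% in all 15 libraries.

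Its partner Rpl11 was also lower in cells labelled Ptpn2 KO after PBS but overlapped after IFNγ. Rpl11 measured 193, 163 and 352 CPM in wild type with PBS, 113, 206 and 187 CPM with IFNγ, and 126, 149 and 125 CPM and 174, 144 and 154 CPM in the matching groups labelled Ptpn2 KO. The log2 difference between genotype labels was -0.82 ± 0.37 with PBS (adjusted p = 0.517), with all 3 values below wild type, and -0.10 ± 0.37 with IFNγ (adjusted p = 1). It was shown after its values were seen. Rplp0 went from 892, 736 and 918 CPM in wild type with PBS to 418, 539 and 578 CPM in cells labelled Ptpn2 KO with PBS (-0.73 ± 0.28, adjusted p = 0.517). Rpl13 was at 436, 502 and 1028 CPM against 439, 386 and 453 CPM (-0.62 ± 0.34), with overlap, and Rps6 at -0.41 ± 0.34.

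**Figure D5:**
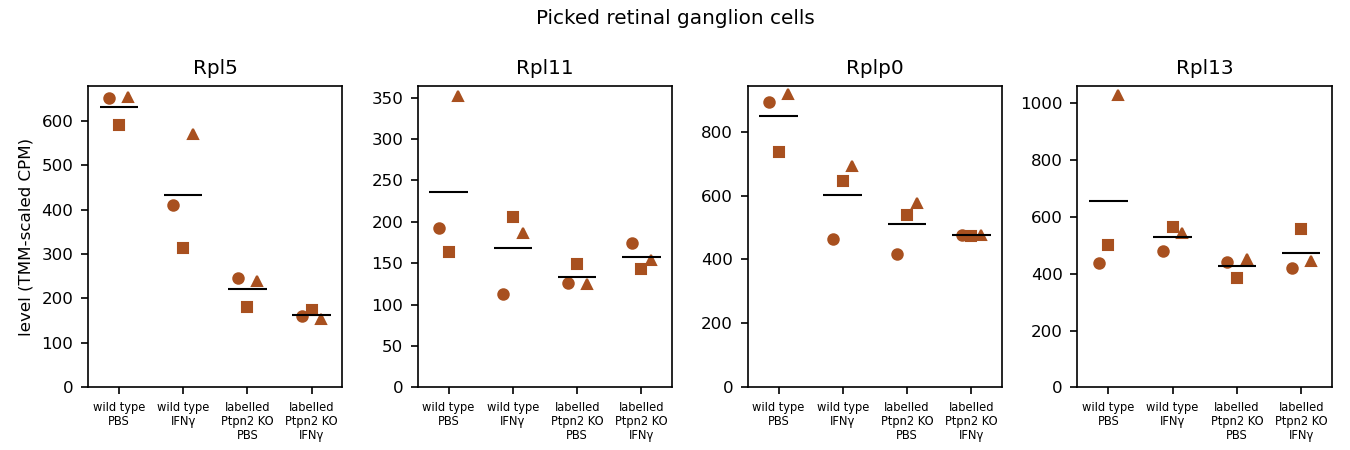
Level in TMM-scaled CPM (vertical axis, from 0) of Rpl5, Rpl11, Rplp0 and Rpl13 in the 12 retinal libraries by group (points, shaped by replicate as in the plot of shares, with lines at the group means). For Rpl5 every value labelled Ptpn2 KO (155 to 246) is below every wild-type value (314 to 653), while the values of Rpl11 labelled Ptpn2 KO are below wild type with PBS and overlap with it after IFNγ.

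Across the module, cells labelled Ptpn2 KO with IFNγ against wild type with PBS had 78 of 79 values below 0, a median of -0.81 (0.05 over all genes), and 28 members lower without overlap, against 6.55% of all genes. After Rpl5, Rps15 (-1.61 ± 0.46, adjusted p = 0.473) and Rpl17 (-1.32 ± 0.39, adjusted p = 0.481) had the smallest p. DESeq2 called 3 members lower (Rpl5, Rps15 and Rpl17, 0.844% of genes), and without wild-type PBS library 3 the median was -0.33. In the 4 lists of related function 0 genes were called in any retinal comparison. Rod markers summed to 630 CPM in wild-type PBS library 3, the library with the highest ribosomal protein share, and to at most 183 CPM in all others, and macrophage markers to 4445 CPM in 1 library labelled Ptpn2 KO with PBS and to at most 198 CPM elsewhere. In wild-type PBS cells 10 of 13 macrophage markers, Aif1 and C1qa among them, were at 0 in all 3 libraries. The part of these libraries' other cells in the ribosomal protein values was not tested.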

How the data were processed

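The 27 mouse libraries comprise 15 of ganglia (SMART-Seq v4 cDNA) and 12 of picked retinal ganglion cells (Smart-seq2). Both tables were deposited as raw counts per gene symbol. Per the submitters' processing notes, Trim Galore and STAR were used with GRCm38, also named mm10. Ganglion reads were counted by featureCounts 2.0.1 with Ensembl release 101 from primary alignments with a mapping quality of at least 10 and without regard to strand, per the file headers, so overlapping and antisense genes, and members with near-identical copies, are uncertain. Which program counted the retinal reads is not stated in these sources. Gene lengths in bases, of unit other, were deposited with the ganglion counts and used for levels per kilobase in both tables. A nameless last line of the retinal table, which repeats the sum of each column (12 of 12) and so holds 50.0% of the table, was removed.

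The fit per experiment used R 4.3.3 and the robust quasi-likelihood test of edgeR 4.0.16 over all groups, with TMM scaling and the filterByExpr filter (minimum count of 10). A gene was called at a Benjamini-Hochberg adjusted p under 0.05, adjusted over every gene tested. Levels are TMM-scaled CPM. A complete separation means that all 3 libraries of a group lay above or below all 3 of the other. Summed shares were compared with an exact two-sided permutation test over samples, adjusted over 10 comparisons. DESeq2 1.42.0 was an alternative. On data simulated for the comparison of injured with sham ganglia labelled Ptpn2 KO (17973 genes), genes changed by a log2 of 0.5, 1 and 2 were called in 0%, 30% and 73.5% of cases, and 5.63% of calls were false. Simulated IFNγ effects in wild-type retinal cells (12629 genes) were called in 0% at every size. No 2 libraries held the same counts. The members and lists were chosen with earlier results of these data known. Members named in the text are Rpl13, Rps6 and Rplp0, the other stalk proteins, Rpsa, the paralogs, per comparison up to 6 called in each direction with the smallest p (otherwise the 3 with the smallest p), and the highest and lowest per length; other names, such as the remaining called members, were added after their values were seen. Some genes that this rule names are not reported here singly; they remain in the counts and medians. Alternatives were other scalings, DESeq2, filters, covariates, sets of libraries and each replicate left out. Wild-type sham libraries 1 and 3 were left out as an alternative chosen after seeing the data.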

Additional observations from a re-analysis of the deposited data

How the results depend on the processing

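The members had at least 121 counts in every library, and whether depth limited the calls was not tested. For injury in wild-type ganglia, DESeq2 called 1 member, a fit with the number of detected genes as covariate 3 lower, and leaving out 1 library 0 to 45. For injury in ganglia labelled Ptpn2 KO the numbers were 17 with DESeq2, 30 with the covariate, 65 with only the groups compared, 58 without wild-type sham libraries 1 and 3, and 0 to 2 with 1 library left out. For the label in sham ganglia leaving out 1 library gave 0 to 14. For the label in injured ganglia the numbers were 1 with DESeq2's size factors, 1 with scaling that left out members, mitochondrial genes and CT010467.1, 4 with DESeq2, 57 with the covariate, 50 with only the groups compared, 21 without the 2 sham libraries and 0 to 1 with 1 left out. The interaction gave 23 with the covariate and 0 with 1 left out. RU521 gave 16 with the covariate, 4 without the 2 sham libraries and 0 to 1 with 1 left out. In retinal cells DESeq2 called 4 (label, PBS), 1 (label, IFNγ) and 3 (label plus IFNγ against wild-type PBS) members. The last comparison lost its call, Rpl5, to 0 with the covariate, with only the groups compared and with any 1 library left out, and the other retinal comparisons stayed at 0 with 1 left out. The cause of these changes was not tested, except that fewer libraries entered some fits. Shares of all genes called are given only for some of these fits. Where they are not, as with most single libraries left out, a change in the members cannot be told from a change over all genes. The retinal interaction uses all groups, so it has no fit with only the groups compared.

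Leaving out 1 library, the difference of the summed share (percentage points) ran from -0.0534 to 0.242 for injury in wild-type ganglia, from 0.300 to 0.316 for injury under the label Ptpn2 KO, from -0.158 to 0.138 for the label in sham and from 0.196 to 0.211 in injured ganglia, and from 0.00701 to 0.0591 for RU521. In retinal cells it ran from -0.880 to -0.111 (IFNγ, wild type), from -0.391 to -0.145 (IFNγ, labelled Ptpn2 KO), from -0.681 to 0.0871 (label, PBS), from -0.211 to 0.0537 (label, IFNγ) and from -0.949 to -0.181 (label plus IFNγ against wild-type PBS). For RU521 the difference turned to -0.0124 with mitochondrial genes and CT010467.1 left out of the total.

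Replicate numbers are shared by the groups. Deviations of same-numbered libraries correlated at -0.116 to 0.267 in ganglia and -0.0242 to 0.0557 in retinal cells. In ganglia 3 of 10 pairs exceeded 0.1 for replicate 1, 3 of 10 for replicate 2 and 0 of 10 for replicate 3. Whether the numbers mark pairs or batches cannot be told from these values. With the replicate block, 15 members were called for injury under the label Ptpn2 KO (7.36% of all genes) and 0 for the label plus IFNγ against wild-type PBS.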
